A study of Rattus norvegicus with 44 samples.

Results

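The 7 genes described here are the rat glutathione S-transferases *Gsta3*, *Gsta4*, *Gstm1*, *Gstm2*, *Gstp1*, *Gstt1* and *Mgst1*, read in liver and kidney across 7 doses of crude 4-methylcyclohexanemethanol (MCHM), an alcohol mixture used in washing coal. Members were taken as the probe sets to which the annotation of the array gives exactly 1 gene, that gene being 1 of the 7, with older names allowed. Each member had 1 such probe set, so the 7 genes stand for 7 of the 31042 probe sets tested and for 7 of the 14217 genes named. The annotation names 24 glutathione transferase genes in all with a probe set of their own, on 25 probe sets, and the 17 that are no members are used for comparison.

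The tissue came from male Harlan Sprague Dawley rats (Hsd:Sprague Dawley SD) on NTP-2000 diet, aged 6 to 8 weeks when assigned to groups after a quarantine of 10 to 14 days. All groups, the vehicle group included, were gavaged with corn oil at 5 mL/kg on 5 consecutive days, and the dosed groups received 0.1, 1, 10, 100, 300 or 500 mg/kg of crude MCHM in it. Rats were killed the day after the last dose, and total RNA was hybridised to Affymetrix rat genome arrays. The 27 liver arrays comprise 4 at each dose except 3 at 0.1 mg/kg, and the 17 kidney arrays comprise 3 at 0, 300 and 500 mg/kg and 2 at each other dose. Arrays with batch effects were removed by the submitters and are not analysed here. Values are the deposited log2 expression values of the robust multi-array average (RMA), and differences between group means are given on that log2 scale. The labels call the arrays of a group biological replicates and do not say whether a liver and a kidney array come from the same rat.

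Glutathione S-transferases join the thiol of glutathione to electrophilic compounds, which is the first step towards their excretion as mercapturates, and some also reduce organic hydroperoxides. The cytosolic enzymes are dimers grouped by sequence into classes, among them alpha (*Gsta*), mu (*Gstm*), pi (*Gstp*) and theta (*Gstt*), while *Mgst1* encodes a separate enzyme embedded in the membranes of the endoplasmic reticulum and mitochondria. In rat liver alpha and mu subunits are abundant in hepatocytes, several of their genes are inducible by foreign compounds through antioxidant response elements and nuclear receptors, and *Gstp1* is nearly silent in normal hepatocytes but marks preneoplastic foci.

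Promoter windows of 300 bases around the gene start (RefSeq, assembly GRCr8, positions counted from the start with no position 0) were held for 6 members, 7 windows in all since *Gsta3* has more than 1 annotated start. *Gstt1* is named only. The windows were searched on both strands for TGACNNNGC, the core of the antioxidant response element, and for GCGTG, the core bound by the aryl hydrocarbon receptor. TGACNNNGC occurred in 1 of the *Gsta3* windows, as TGACTTCGC starting at position -17, and in the *Gstp1* window, as TGACTCAGC at -61, where it overlaps the AP-1 site TGACTCA. No other member window held it, and 12.1% of all 33469 promoter windows did. GCGTG was found in the second *Gsta3* window and in those of *Gsta4* and *Gstp1*, against 29.7% of all windows. Shown are the windows of *Gsta3* (the start that holds the motif), *Gstm2* and *Mgst1*, 3 members whose liver levels at 500 mg/kg all lay above the vehicle levels, and that of *Gstp1*, which holds the motif and whose levels did not. Each is on the strand of the gene, with TGACNNNGC matches in capitals.
Gsta3 promoter, chr9:31154739-31155038 (+ strand): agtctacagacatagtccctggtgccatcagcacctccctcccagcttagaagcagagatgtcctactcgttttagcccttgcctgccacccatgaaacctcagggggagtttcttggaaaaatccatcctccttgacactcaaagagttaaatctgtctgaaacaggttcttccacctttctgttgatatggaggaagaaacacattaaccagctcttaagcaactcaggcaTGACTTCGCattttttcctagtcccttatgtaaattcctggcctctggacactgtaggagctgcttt
Gstm2 promoter, chr2:198316868-198317167 (- strand): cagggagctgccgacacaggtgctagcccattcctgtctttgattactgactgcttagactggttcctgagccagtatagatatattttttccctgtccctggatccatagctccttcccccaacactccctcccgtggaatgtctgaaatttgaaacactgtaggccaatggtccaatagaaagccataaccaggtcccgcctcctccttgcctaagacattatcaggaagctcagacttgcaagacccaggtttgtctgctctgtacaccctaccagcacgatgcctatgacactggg
Mgst1 promoter, chr4:172760680-172760979 (+ strand): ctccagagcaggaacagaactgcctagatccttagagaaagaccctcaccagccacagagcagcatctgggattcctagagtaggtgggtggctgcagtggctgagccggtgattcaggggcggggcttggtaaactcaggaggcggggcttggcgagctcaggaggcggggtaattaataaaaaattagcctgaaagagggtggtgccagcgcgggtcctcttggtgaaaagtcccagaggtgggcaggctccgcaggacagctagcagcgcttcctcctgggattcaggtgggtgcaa
Gstp1 promoter, chr1:210769656-210769955 (- strand): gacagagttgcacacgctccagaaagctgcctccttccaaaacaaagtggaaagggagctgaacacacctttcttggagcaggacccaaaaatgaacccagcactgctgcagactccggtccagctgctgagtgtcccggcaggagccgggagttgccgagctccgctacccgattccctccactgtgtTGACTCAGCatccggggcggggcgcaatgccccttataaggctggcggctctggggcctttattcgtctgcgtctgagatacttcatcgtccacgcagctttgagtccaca

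A match says only that the letters are present, and no binding was measured. Members of a class are close in sequence, so a probe set may also take up signal from a relative, and the probe sequences were not used here. One probe set that the annotation gives to more than 1 alpha-class gene was left out.

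Across probe sets, pairs of arrays of the same organ correlated at 0.984 to 0.996, and no pair held identical values. Hepatocyte markers averaged 14.01 in vehicle liver and proximal tubule markers 11.03 to 11.62 across kidneys, so the tissues carried their markers. In 1 kidney array, 1 mg/kg replicate 1, 5 measured hepatocyte markers averaged 8.06, against 3.92 to 4.55 in the other 16 kidney arrays, with *Alb*, encoding albumin, at 11.06 against 5.86 at most elsewhere. *Xist*, the RNA of the inactive X chromosome, read 11.00 and 9.33 in vehicle replicate 2 of liver and kidney and at most 3.04 and 2.59 on the same probe set in all other liver and kidney arrays, while the Y-linked *Eif2s3y* was present in both arrays too, at 9.26 and 10.02. In liver 300 mg/kg replicate 2, 4 male-biased liver genes averaged 12.62, against 13.11 or more in the other 26 livers. Results of members that use these arrays are given with and without them where the call changes.

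All 7 members differed between the vehicle livers and the vehicle kidneys, 4 higher in liver and 3 higher in kidney, in a comparison in which 61.4% of all probe sets passed an adjusted p of 0.05. Here and below the adjusted p comes from limma's moderated test, adjusted by Benjamini and Hochberg's method over 31042 probe sets. The mu-class genes were the most liver-biased members. *Gstm1*, a major mu subunit of hepatocytes, read 12.69, 12.59, 12.65 and 12.60 in the 4 vehicle livers and 8.19, 8.23 and 8.14 in the 3 vehicle kidneys. The difference was 4.44 (SE 0.14, adjusted p = 3.53e-25). *Gstm2* read 11.28, 11.03, 10.49 and 10.93 in liver and 6.998, 6.922 and 6.906 in kidney, a difference of 3.99 (SE 0.12, adjusted p = 7.18e-26). For both genes every liver array lay far above every kidney array. *Mgst1*, the microsomal enzyme, was higher in liver by 2.12 (SE 0.06, adjusted p = 2.84e-26), and *Gsta3* by 0.97 (SE 0.33, adjusted p = 0.0110). The *Gsta3* call was lost without vehicle liver replicate 1, with 0.77 (adjusted p = 0.0517), and without the pair of vehicle arrays that read high for *Xist*, with 0.92 (adjusted p = 0.0515).

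The remaining members had the opposite order. *Gstp1*, the pi-class gene, read 8.85, 8.85, 8.57 and 8.72 in the vehicle livers and 12.27, 11.95 and 12.56 in the vehicle kidneys, a difference of -3.51 (SE 0.18, adjusted p = 3.79e-19). *Gsta4*, whose enzyme prefers 4-hydroxynonenal and related products of lipid peroxidation, had a liver minus kidney difference of -0.86 (SE 0.08, adjusted p = 4.35e-12). The difference of *Gstt1*, the theta-class gene, was small, -0.24 (SE 0.10, adjusted p = 0.0328), and it did not pass after a second quantile normalization across all arrays, with -0.11 (adjusted p = 0.297), or when any of 4 single vehicle arrays was left out (adjusted p up to 0.105). The plot of the vehicle arrays shows these levels. Whether the submitters normalised liver and kidney together is not given in the sources used here, which touches every difference between the organs. The lowest and the highest value were the same in the liver and the kidney arrays, 1.80271 and 14.8538. Upper quartiles ran from 7.14 to 7.26 in liver and from 7.33 to 7.48 in kidney, and joint normalization was not tested. In bulk tissue fewer cells of a type and less RNA per cell cannot be told apart.

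**Figure D1:**
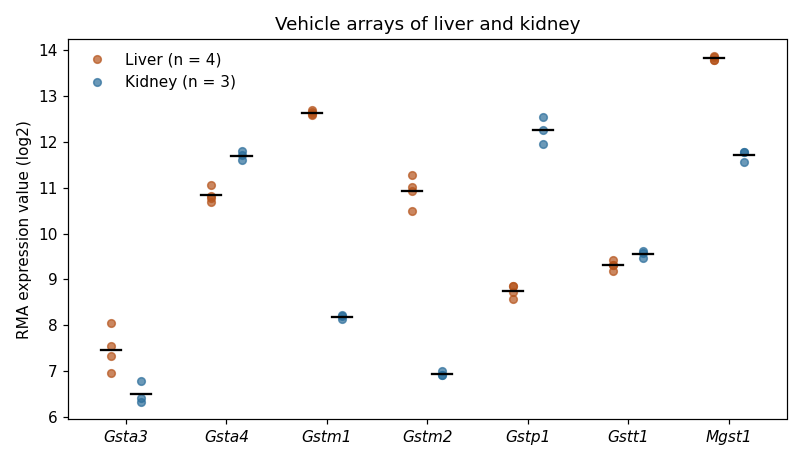
RMA expression value (log2) of each member in the 4 vehicle livers (orange) and the 3 vehicle kidneys (blue), 1 point an array, with the mean as a black line. *Gstm1*, *Gstm2* and *Mgst1* sit far higher in liver, *Gstp1* far higher in kidney (differences of 4.44, 3.99, 2.12 and -3.51), and *Gstt1* nearly level (-0.24).

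In liver, *Gsta3* was the member that responded most to MCHM, and its response lay at 300 and 500 mg/kg. RefSeq gives Yc2 as an older name of this gene, and the rat Yc2 subunit is known for conjugating the epoxide of aflatoxin. *Gsta3* read 8.05, 7.33, 7.54 and 6.96 in vehicle liver, 8.36, 9.03, 8.18 and 8.38 in the 300 mg/kg group and 8.39, 8.86, 8.52 and 8.87 in the 500 mg/kg group. All 8 arrays of the highest doses therefore lay above all 4 vehicle arrays. Taken 1 dose at a time, 3.86% of all probe sets did so at 300 mg/kg and 3.4% at 500 mg/kg. The share at both doses together was not counted. The levels between were 6.31, 8.17 and 7.20 at 0.1 mg/kg, 8.09, 6.88, 7.04 and 6.84 at 1 mg/kg, 7.81, 7.23, 6.98 and 7.93 at 10 mg/kg, and then 7.27, 7.60, 6.77 and 7.77 at 100 mg/kg. These 4 doses were scattered around the vehicle levels, with differences from vehicle between -0.26 and 0.01.

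Against the 4 vehicle arrays alone, the *Gsta3* differences were 1.02 at 300 mg/kg (SE 0.33, a factor of 2.02) and 1.19 at 500 mg/kg (SE 0.33, a factor of 2.28), and neither passed, with limma adjusted p = 0.240 and 0.173. Against the 11 arrays of 0.1, 1 and 10 mg/kg, which ran from 6.31 to 8.17 with a median of 7.20, the 8 arrays of 300 and 500 mg/kg ran from 8.18 to 9.03 with a median of 8.46. In that comparison *Gsta3* rose by 1.27 (SE 0.22, 95% interval 0.82 to 1.71, a factor of 2.40, limma adjusted p = 0.00565), with rank 21 by p among the 31042 probe sets. It was 1 member called of 7, where 0.554% of all probe sets were called, and it stayed past the threshold in all 26 alternatives run, which included leaving out each of the 19 arrays in turn. The separation of the groups was narrow, since the highest low-dose array read 8.174 and the lowest high-dose array 8.179. Groups apart in this way, high doses above low doses, were seen for 0.0677% of all probe sets, 21 in number, and for the members *Gsta3* and *Mgst1*. The 300 and 500 mg/kg groups did not separate from each other, with a difference of 0.17 (SE 0.33, adjusted p = 0.943).

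Over the 7 dose levels, numbered 0 to 6, the *Gsta3* slope was 0.22 per level (SE 0.05, adjusted p = 0.0570), just above the threshold. None of the 7 members passed in this trend, in which 0.245% of probe sets did, while 6 of 7 had an unadjusted p under 0.05, against 11.2% of all probe sets. The *Gsta3* slope passed without vehicle replicate 1, the vehicle liver with the highest level, at 0.26 per level (adjusted p = 0.0181), and also without 3 other single arrays, with only probe sets above the median level or with array weights. The order of group means was 1, 0.1, 100, 0, 10, 300 and 500 mg/kg from low to high, and neighbours among the first 5 do not differ beyond their spread, since the vehicle SD was 0.46 (n = 4) and that at 0.1 mg/kg 0.93 (n = 3).

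**Figure D2:**
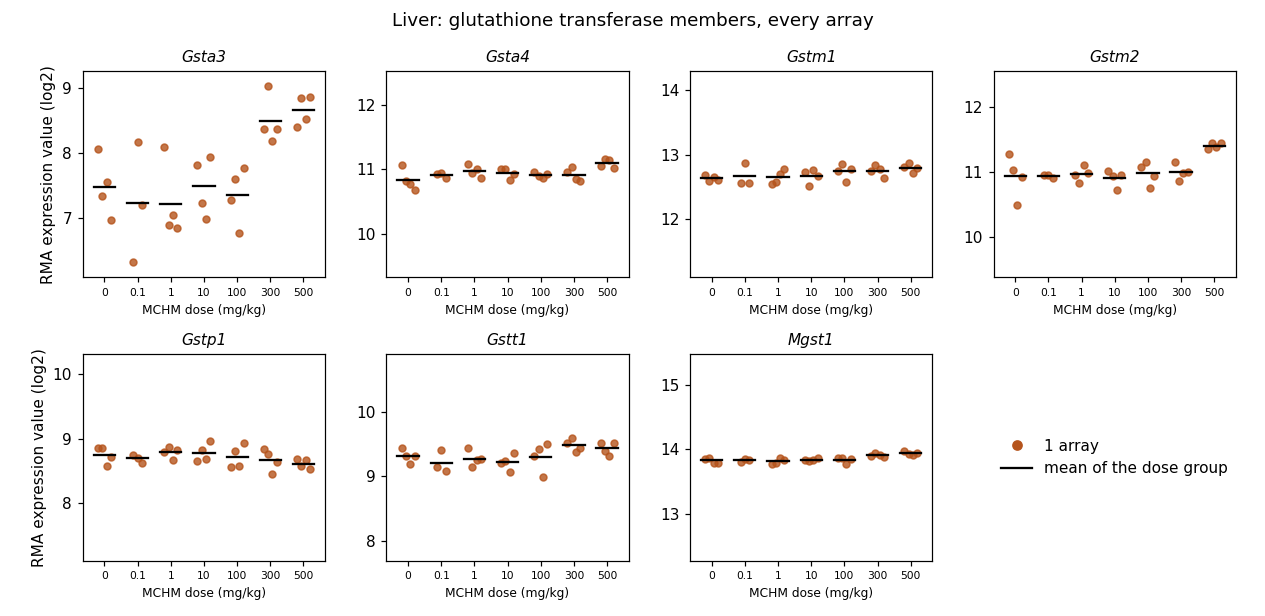
RMA expression value (log2) of the 7 members in every liver array by dose of MCHM in mg/kg, 1 point an array, with group means as black lines and a vertical scale of equal length in each panel. *Gsta3* sits at 8.18 to 9.03 at 300 and 500 mg/kg and at 6.31 to 8.17 at all lower doses, *Gstm2* is raised in the 4 arrays of 500 mg/kg, and the other members move little.

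*Gsta4*, the other alpha-class member, moved far less. It read 11.07, 10.82, 10.78 and 10.68 in vehicle liver, 10.96, 11.03, 10.84 and 10.82 at 300 mg/kg, and then 11.06, 11.16, 11.15 and 11.03 at 500 mg/kg. The groups at 0 and 500 mg/kg overlapped through vehicle replicate 1. The difference at 500 mg/kg was 0.26 (SE 0.08, unadjusted p = 0.00253, limma adjusted p = 0.232), at 300 mg/kg 0.08 (SE 0.08), and between high and low doses 0.06 (SE 0.05, adjusted p = 0.690).

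The mu-class members were abundant in liver and differed little with dose, except *Gstm2* at 500 mg/kg. *Gstm2* read 11.28, 11.03, 10.49 and 10.93 with vehicle, 11.16, 10.86, 10.98 and 11.01 at 300 mg/kg, and then 11.36, 11.44, 11.39 and 11.45 at 500 mg/kg. The 4 arrays at 500 mg/kg were tight and lay above all arrays of every other liver group. The share of all probe sets that lay above every other group was not counted, and 3.4% lay above vehicle at 500 mg/kg without overlap. The difference from vehicle was 0.48 (SE 0.12, a factor of 1.39, unadjusted p = 0.000397), yet the limma adjusted p was 0.112. Without vehicle replicate 1, the highest vehicle array, it was 0.60 and passed (adjusted p = 0.0174). At 300 mg/kg the difference was 0.07 (SE 0.12), and 500 minus 300 mg/kg gave 0.41 (SE 0.12, adjusted p = 0.308). Levels at 500 mg/kg lay above those at 300 mg/kg without overlap for 1 member, *Gstm2*, as for 2.47% of all probe sets, and 0 of 7 members were called in that comparison, where 0.00644% of probe sets were and where *Gstm2* and *Gsta4* had an unadjusted p under 0.05.

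*Gstm1* read 12.69, 12.59, 12.65 and 12.60 in vehicle liver and 12.81, 12.88, 12.72 and 12.79 at 500 mg/kg. The groups did not overlap, but the difference was 0.17 (SE 0.08, a factor of 1.12, limma adjusted p = 0.578). At 300 mg/kg it was 0.12 (SE 0.08), with overlapping groups.

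*Mgst1* read 13.86, 13.87, 13.79 and 13.79 in vehicle liver, 13.90, 13.94, 13.92 and 13.88 at 300 mg/kg, and then 13.98, 13.94, 13.91 and 13.94 at 500 mg/kg. Both high-dose groups lay above vehicle without overlap, by 0.08 (SE 0.06, adjusted p = 0.690) and 0.11 (SE 0.06, adjusted p = 0.562). Taken 1 dose at a time, 3.86% and 3.4% of all probe sets did so. The high minus low difference was 0.10 (SE 0.04, a factor of 1.07, adjusted p = 0.256), and it passed when the spread was modelled with an intensity trend and robustly (adjusted p = 0.0134). Its levels are close to the top of the scale, where the highest value of all arrays was 14.85.

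*Gstt1*, whose enzyme also acts on small halogenated compounds, read 9.43, 9.31, 9.19 and 9.31 with vehicle, 9.51, 9.59, 9.37 and 9.44 at 300 mg/kg, and then 9.52, 9.39, 9.31 and 9.51 at 500 mg/kg. Both groups overlapped vehicle. Its high minus low difference was 0.23 (SE 0.07, unadjusted p = 0.00246, limma adjusted p = 0.130). *Gstp1* had the only negative differences, -0.08 (SE 0.10) at 300 and -0.13 (SE 0.10, adjusted p = 0.751) at 500 mg/kg, with 8.84, 8.77, 8.45 and 8.64 and then 8.68, 8.58, 8.67 and 8.53 in the arrays. Both groups overlapped the vehicle levels.

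Counted together, 0 of 7 members passed in limma against vehicle at 500 mg/kg, where 0.177% of all probe sets passed, and 3 of 7 had an unadjusted p under 0.05 (*Gsta3*, *Gsta4* and *Gstm2*), against 8.99% of all probe sets. At 300 mg/kg 0 of 7 passed, where 0.122% did, and 1 of 7 had an unadjusted p under 0.05, against 9.83%. At 0.1, 1, 10 and 100 mg/kg 0 of 7 passed, as did 0% of all probe sets, and none had an unadjusted p under 0.05. Of the 7 members 6 lay above 0 at 500 mg/kg, against 51.2% of all probe sets, with a median difference of 0.17, where the median over all genes was 0.01. At 500 mg/kg 4 members lay above vehicle without overlap (*Gsta3*, *Gstm1*, *Gstm2* and *Mgst1*), as did 3.4% of all probe sets, and at 300 mg/kg 2 did (*Gsta3* and *Mgst1*), against 3.86%.

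**Figure D3:**
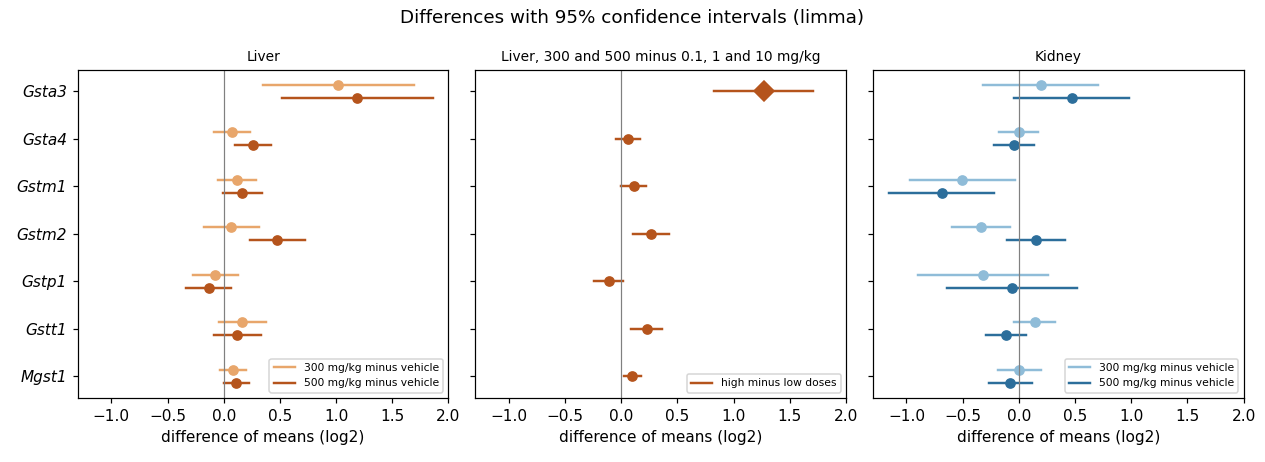
Differences of group means (log2) for each member with 95% confidence intervals from limma, for 300 and 500 mg/kg minus vehicle in liver (left) and kidney (right) and for 300 and 500 minus 0.1, 1 and 10 mg/kg in liver (middle). The diamond marks the only member past an adjusted p of 0.05, *Gsta3* at 1.27, and *Gstm1* lies below 0 in kidney at -0.50 and -0.69.

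Means of some marker lists differed from vehicle at the high doses. The mean of 8 stellate cell and fibroblast markers ran from 7.23 to 7.61 in vehicle liver, 6.90 to 7.22 at 300 mg/kg, and then 7.01 to 7.16 at 500 mg/kg, lower without overlap at both doses, with 0 of 8 markers past the threshold in either comparison. At 0.1 mg/kg it ran from 7.05 to 7.28, overlapping vehicle and the high doses. The mean of 7 pericentral hepatocyte markers ran from 9.38 to 9.61 with vehicle and from 9.63 to 9.77 at 500 mg/kg, also with 0 of 7 past the threshold. It ran from 9.63 to 9.77 at 1 mg/kg too and from 9.49 to 9.62 at 300 mg/kg, so the level at 500 mg/kg was not particular to that dose. The mean of 6 lymphocyte markers ran from 5.39 to 5.54 with vehicle and from 5.15 to 5.24 at 500 mg/kg, with 1 of 6 lower past the threshold. For 6 female-biased liver genes the mean ran from 6.755 to 6.999 with vehicle, 7.05 to 7.28 at 300 mg/kg, and then 6.812 to 6.996 at 500 mg/kg. The highest of these, 7.28, was 300 mg/kg replicate 2, which was also the lowest in male-biased genes and had the highest *Gsta3* level, 9.03. Without that array the *Gsta3* difference between high and low doses was 1.17 (adjusted p = 0.0152) and that at 300 mg/kg 0.84 (adjusted p = 0.437). The part of any of these in the *Gsta3* and *Gstm2* values was not tested. The mean of 5 hepatocyte markers ran from 13.99 to 14.02 with vehicle and from 13.88 to 13.97 at 500 mg/kg.

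Among the 17 other transferase genes, 1 rose in liver, *Gstk1*, the mitochondrial and peroxisomal kappa-class enzyme. It read 11.18, 11.14, 11.00 and 11.25 with vehicle, 11.36, 11.36, 11.36 and 11.26 at 300 mg/kg, and then 11.51, 11.38, 11.53 and 11.53 at 500 mg/kg. All 8 high-dose arrays lay above all 4 vehicle arrays. Taken 1 dose at a time, 3.86% of all probe sets did so at 300 mg/kg and 3.4% at 500 mg/kg. The share at both doses together was not counted. *Gstk1* rose by 0.35 at 500 mg/kg (SE 0.07, limma adjusted p = 0.0306) and by 0.30 between high and low doses (SE 0.05, adjusted p = 0.00231). The 17 other genes had 13 of 17 differences above 0 at 500 mg/kg, against 51.2% of all probe sets, with a median of 0.11. Those with the smallest p after *Gstk1* were *Gstm7* at 0.34 (adjusted p = 0.274), *Gsto1* at 0.21 (adjusted p = 0.378) and *Mgst3* at 0.23 (adjusted p = 0.425).

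**Figure D4:**
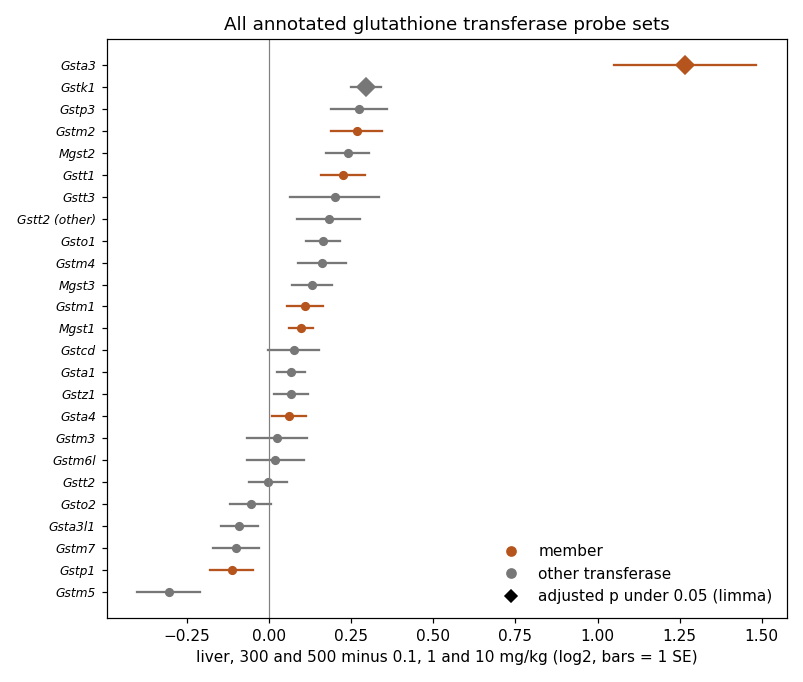
Difference between 300 and 500 and 0.1, 1 and 10 mg/kg in liver (log2) for each of the 25 transferase probe sets, with bars of 1 SE, members in orange and other transferases in grey. Diamonds mark *Gsta3* at 1.27 and *Gstk1* at 0.30, those past an adjusted p of 0.05.

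The genes that feed and follow conjugation were read from lists set for this purpose. Of 18 measured genes of glutathione synthesis and recycling, 0 passed at 500 mg/kg in liver, with 14 of 18 above 0 and a median of 0.11. Over all probe sets 51.2% lay above 0 there. *Gclc*, the catalytic subunit of the rate-limiting enzyme of glutathione synthesis, was at 0.39 (SE 0.12, adjusted p = 0.236). *Gpx4*, a glutathione peroxidase for membrane lipids, was at 0.21 (SE 0.07, adjusted p = 0.276), *Pgd*, an NADPH-producing enzyme, at 0.37 (SE 0.14, adjusted p = 0.396), and *Chac2*, which degrades glutathione, at -0.34 (SE 0.12, adjusted p = 0.355). Of 16 measured genes of the mercapturate pathway and of conjugate export, 0 passed at 500 mg/kg, with a median of -0.03, and the lowest p belonged to *Nat8*, an N-acetyltransferase for cysteine conjugates, at 0.66 (SE 0.23, adjusted p = 0.346). *Nat8b* fell by 0.40 between high and low doses (SE 0.09, adjusted p = 0.0397), where 0.554% of all probe sets were called, and was at -0.17 at 500 mg/kg (SE 0.14, adjusted p = 0.770). Its liver levels, from 5.26 to 6.30, lay near the medians of the liver arrays, 5.28 to 5.35. Of 14 measured regulators 0 passed, and *Mafg*, encoding a small Maf protein that pairs with NRF2, was at -0.35 (SE 0.09, adjusted p = 0.152). *Nfe2l2*, which encodes NRF2, was at -0.17 (SE 0.16) and the xenobiotic receptor genes *Nr1i2* and *Nr1i3* at 0.07 (SE 0.08) and 0.26 (SE 0.25).

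In kidney no member passed in any comparison of doses, and the gene with the widest differences was *Gstm1*, in the opposite direction to liver. *Gstm1* read 8.19, 8.23 and 8.14 with vehicle, 7.82, 7.69 and 7.54 at 300 mg/kg, and then 7.72, 7.13 and 7.64 at 500 mg/kg. All 6 high-dose kidneys thus lay below all 3 vehicle kidneys. Taken 1 dose at a time, 3.68% of all probe sets did so at 300 mg/kg and 8.81% at 500 mg/kg. The share at both doses together was not counted. At the lower doses *Gstm1* read 8.52 and 8.33 (0.1 mg/kg), 8.27 and 7.17 (1 mg/kg), 8.14 and 8.06 (10 mg/kg), and then 8.11 and 7.85 (100 mg/kg). Apart from 1 array of 1 mg/kg at 7.17, these lay above the high-dose arrays.

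The *Gstm1* difference was -0.50 at 300 mg/kg (SE 0.22, limma adjusted p = 0.999) and -0.69 at 500 mg/kg (SE 0.22, 95% interval -1.15 to -0.22, unadjusted p = 0.00681, adjusted p = 0.364). High minus low doses gave -0.49 (SE 0.15, adjusted p = 0.505), and without 1 mg/kg replicate 2, the array at 7.17, -0.67, which passed (adjusted p = 0.0300). The slope was -0.12 per dose level (SE 0.03, unadjusted p = 0.00163, adjusted p = 0.560), with rank 85 by p. With liver and kidney in 1 fit, which shares the spread of both organs, the value at 500 mg/kg passed (adjusted p = 0.0151). In that fit 425 of all probe sets passed at 500 mg/kg in kidney, against 0 in the fit of kidney alone. The arrays lowest in *Gstm1*, 1 mg/kg replicate 2 at 7.17 and 500 mg/kg replicate 2 at 7.13, were the highest of the 17 kidneys in the mean of 5 adipocyte markers, at 7.15 and 6.53, where the rest ran from 4.44 to 6.38. In the vehicle kidneys that mean ran from 4.53 to 6.09, while *Gstm1* ran only from 8.14 to 8.23. Without 500 mg/kg replicate 2 the *Gstm1* difference at 500 mg/kg was -0.51 (adjusted p = 0.671) and high minus low -0.40 (adjusted p = 0.728). Without the array that carried hepatocyte markers, in which *Gstm1* read 8.27, the high minus low difference was -0.31 (adjusted p = 0.804) and the slope -0.11 (adjusted p = 0.676).

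Means of some other kidney cell markers were lower than vehicle at 500 mg/kg. The mean of 6 endothelial markers ran from 7.43 to 7.69 with vehicle and from 7.27 to 7.41 at 500 mg/kg, and that of 6 lymphocyte markers from 4.76 to 4.86 and from 4.58 to 4.66. For 6 macrophage markers it ran from 4.97 to 5.01 with vehicle, 4.82 to 4.91 at 300 mg/kg, and then 4.67 to 4.92 at 500 mg/kg. The macrophage mean also lay below vehicle at 100 mg/kg, at 4.82 to 4.93. At 0.1 mg/kg it was 4.88 in both arrays, in which *Gstm1* read 8.52 and 8.33, so the lower macrophage mean was not particular to the high doses. At 500 mg/kg the means of these lists did not overlap the vehicle ones, though 0 of 6 markers of each list passed the threshold. At 300 mg/kg the endothelial and lymphocyte means overlapped vehicle. The part of these cells and of adipocytes in the *Gstm1* values was not tested.

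*Gstm2* in kidney read 6.998, 6.922 and 6.906 with vehicle, 6.74, 6.53 and 6.54 at 300 mg/kg, and then 6.96, 7.20 and 7.12 at 500 mg/kg. The 300 mg/kg arrays lay below both other groups, by -0.34 against vehicle (SE 0.12, adjusted p = 0.999), and 500 minus 300 mg/kg gave 0.49 (SE 0.12, unadjusted p = 0.00122, adjusted p = 0.863). *Gstt1* went the other way between these doses, from 9.64, 9.76 and 9.68 to 9.49, 9.39 and 9.44, a difference of -0.25 (SE 0.08, adjusted p = 0.863). No overlap between 500 and 300 mg/kg was seen for *Gstm2* upward, as for 4.84% of all probe sets, and for *Gstt1* downward, as for 6.37%. The 500 minus 300 mg/kg comparison had 0 of 7 members called and 0% of all probe sets.

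*Gsta3* in kidney read 6.41, 6.32 and 6.78 with vehicle and 6.63, 7.23 and 7.06 at 500 mg/kg, overlapping, with a difference of 0.47 (SE 0.24, adjusted p = 0.535). Its widest pair was that at 100 mg/kg, 6.07 and 7.16, and in the same arrays 6 epithelial markers shared with bile ducts averaged 8.13, the lowest of the 17 kidney arrays, and 8.98, which only 1 mg/kg replicate 1 equalled. Their part in the *Gsta3* values was not tested. *Gstp1* spread widely within groups, from 11.44 to 12.65 over the 17 kidneys, and its difference at 500 mg/kg was -0.06 (SE 0.27). For *Gsta4*, *Gstt1* and *Mgst1* the differences at 500 mg/kg were -0.04 (SE 0.08), -0.11 (SE 0.08) and -0.08 (SE 0.09), and for *Gstm2* 0.15 (SE 0.12), all with adjusted p between 0.680 and 0.902 in limma.

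Counted together in kidney, 0 of 7 members and 0% of all probe sets passed in limma at each of the 6 doses, in the trend and between high and low doses. Unadjusted p under 0.05 was reached by 1 of 7 members at 500 mg/kg (10.1% of all probe sets), 2 at 300 mg/kg (3.62%), 1 in the trend (7.1%), 2 between high and low doses (8.22%) and none at 0.1 to 100 mg/kg. Levels below vehicle without overlap were seen for 1 member at 500 mg/kg, *Gstm1*, as for 8.81% of all probe sets, and for 2 at 300 mg/kg, *Gstm1* and *Gstm2*, against 3.68%. Levels above vehicle without overlap were seen for 1 member at 300 mg/kg, *Gstt1*, as for 4% of all probe sets, and for 0 at 500 mg/kg, against 7%. Without vehicle replicate 1, 616 probe sets passed at 500 mg/kg, and 0 of 7 members did. That array had lower means than vehicle replicates 2 and 3 of adipocyte markers, 4.53 against 5.98 and 6.09, and of stellate cell and fibroblast markers, 7.01 against 7.43 and 7.39.

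**Figure D5:**
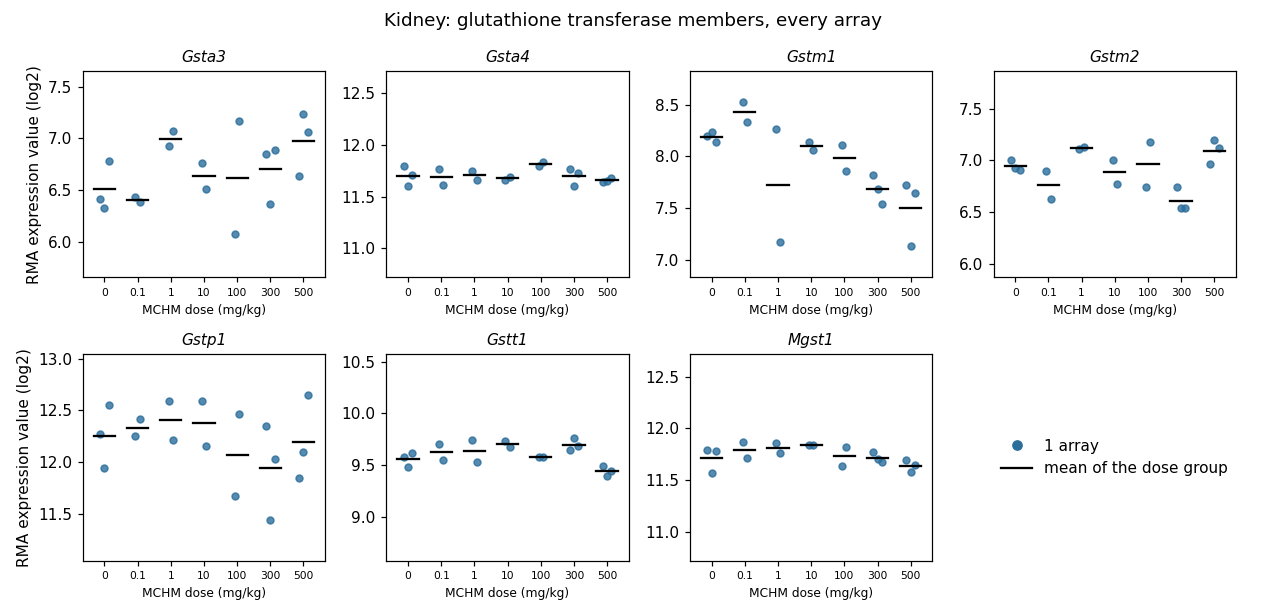
RMA expression value (log2) of the 7 members in every kidney array by dose of MCHM in mg/kg, 1 point an array, with group means as black lines and a vertical scale of equal length in each panel. *Gstm1* sits at 8.14 to 8.23 with vehicle and at 7.13 to 7.82 at 300 and 500 mg/kg, and *Gsta4*, *Gstt1* and *Mgst1* move little.

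How far the response at 500 mg/kg in liver exceeded that in kidney was tested across the 14 groups of organ and dose together. It was above 0 for 6 of 7 members, against 52.9% of all probe sets, and 0 of 7 passed, where 0.029% did. *Gstm1* had the smallest p, with a difference of 0.85 (SE 0.20, 95% interval 0.44 to 1.27, unadjusted p = 0.000181, limma adjusted p = 0.0836). This fit gives both organs 1 spread, while in the separate fits at 500 mg/kg the SE of *Gstm1* was 0.08 in liver and 0.22 in kidney. The interval and p may therefore be too favourable for the kidney part. *Gstm1* passed with only the probe sets above the median level (adjusted p = 0.0472) and with array weights (adjusted p = 0.0158). It also passed without kidney vehicle replicate 1 (adjusted p = 0.0274) and without the kidney array that carried hepatocyte markers (adjusted p = 0.0160). Each gave a difference between 0.83 and 0.85. Over all probe sets these settings called 70, 951, 746 and 11, against 9 in the main fit. *Gsta3* had 0.72 (SE 0.46, adjusted p = 0.653), *Gstm2* 0.33 (SE 0.17), *Gsta4* 0.30 (SE 0.11, adjusted p = 0.275), *Gstt1* 0.23 (SE 0.14), *Mgst1* 0.19 (SE 0.09) and *Gstp1* -0.07 (SE 0.25). At 300 mg/kg 0 of 7 members and 0% of all probe sets passed, with 0.62 for *Gstm1* (SE 0.20, adjusted p = 0.598) and 0.82 for *Gsta3* (SE 0.46, adjusted p = 0.835). The labels do not tie liver to kidney arrays, so this test holds no block for the animal.

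Within dose groups, after each group's mean was removed, some members varied together across the 27 livers. Of 21 pairs, the closest was *Gsta3* and *Gstt1*, with Pearson's r = 0.73 (permutation p = 0.00026, adjusted p = 0.00546 over the 21 pairs) and Spearman's rho = 0.70 (permutation p = 0.00104, adjusted p = 0.0218). Without the 2 arrays farthest from the median in *Gsta3* it was r = 0.66. *Gstm1* and *Mgst1* had r = 0.61 and rho = 0.55 (permutation p = 0.00279 and 0.00795, adjusted 0.0215 and 0.0417), and r = 0.53 without the 2 arrays farthest from the median in *Gstm1*. *Gsta3* and *Gsta4*, the alpha-class pair, had r = 0.55 and rho = 0.56 (permutation p = 0.00307 and 0.00516, adjusted 0.0215 and 0.0417), and *Gstp1* and *Gstt1* r = 0.58 and rho = 0.54 (permutation p = 0.00721 and 0.00772, adjusted 0.0379 and 0.0417). In the 17 kidneys no pair passed, and the lowest adjusted p was 0.239. The correlations themselves were as high there, with r = 0.76 and rho = 0.77 for *Gsta3* and *Gstp1* and r = 0.74 for *Gsta3* and *Gstm2*. Kidney groups of 2 or 3 arrays allow fewer permutations, so the result does not show that members vary separately in kidney.

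Over the raw values of the 27 livers, each member was set against 9741 other genes by Pearson's r, given as a description since these arrays share the doses and their scaling. The nearest to *Gsta3* were *Fggy* (r = 0.86), a carbohydrate kinase, *Acsm2* (0.84), a medium-chain acyl-CoA synthetase, and *Acot9* (0.83), a mitochondrial acyl-CoA thioesterase. The nearest to *Gsta4* were *Sat2* (0.84), *Ehhadh* (0.77), a peroxisomal enzyme of fatty acid oxidation, and *Nqo1* (0.77), a quinone reductase. For *Gstm1* they were *Akr7a3* (0.79), the aflatoxin aldehyde reductase, *Fbxo4* (0.71) and *Ppargc1b* (0.71). For *Gstm2* they were *Uroc1*, *Ndufs7* and *Tspan31*, each at r = 0.84. *Gstp1* lay nearest to *Lama4* (0.81), *Cd93* (0.78) and *Ifitm2* (0.77), the first encoding a vessel wall laminin and *Cd93* an endothelial surface protein. *Gstt1* lay nearest to *Csad* (0.81), *Tkt* (0.80) and *Kxd1* (0.79), with *Gsta3* next at 0.79, and *Mgst1* to *Gstk1* (0.85), *Pgam1* (0.81) and *Pepd* (0.81). Once group means were removed, r was 0.71 for *Gsta3* and *Fggy* and 0.48 for *Mgst1* and *Gstk1*.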

How the data were processed

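RNA of 27 livers and 17 kidneys was read on 3' expression arrays. The authors deposited log2 values made by RMA, which corrects background, equalises distributions and summarises probes (tool named per the submitters' processing notes). Its version and whether both organs were normalised jointly are not stated. Without scanner files, detection above background was not assessed. Quantile normalization hides a shift shared by most transcripts, and the number of arrays limits the precision.

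Arrays were grouped by their titles. A kidney array of 10 mg/kg has no replicate number there, was numbered in accession order and is not used where numbers are. Of 31099 probe sets, 57 controls were left out. Of the 31042 tested, 20826 have 1 gene in the platform annotation, 436 several and 9780 none, and 20758 matched a RefSeq table (GRCr8) used for names. Each member is named from its only probe set.

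With limma 3.58.1 in R 4.3.3, lmFit and eBayes were fitted to the 7 dose groups of each organ. Comparisons between organs used 1 fit of all 44 arrays. Tests are two-sided, with Benjamini-Hochberg adjustment over all 31042 probe sets and a threshold of 0.05. The fits were checked on simulated data. Comparisons with vehicle share the vehicle arrays. Where separate animals are not stated for arrays, p-values measure the spread between arrays only. Pair correlations used 100000 permutations of arrays within dose groups.

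All 7 members are named whatever their values. Other genes are named from lists of transferases, glutathione metabolism, the mercapturate pathway and regulators if past the threshold, and otherwise up to 4 per list by the smallest p at 500 mg/kg in liver. *Nfe2l2*, *Nr1i2* and *Nr1i3* were named outside this rule after their values were seen. For likeness of pattern the 3 genes with the highest r are named. Members and lists were chosen with earlier results of these data known, and the comparison of 500 with 300 mg/kg was added after values were seen. Alternatives were a filter above the median level, a second quantile normalization, a fit of only the groups compared, 1 fit of all arrays, an intensity trend with robust spread, array weights, the replicate block and leaving out each array. Alternatives that change the probe set of a gene do not apply, since each member has 1.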

Additional observations from a re-analysis of the deposited data

Results flagged for a closer look

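*Gsta3* in liver at 1 mg/kg had 1 array apart from its group. Replicate 1 read 8.09, against 6.84 to 7.04 in the other 3 arrays of that dose, a gap larger than Dixon's 95% limit for 4 samples allows. It was the only such array among 42 groups of 4 liver arrays examined for the 7 members, and chance marks about 1 in 20 groups. Without it the high minus low difference of *Gsta3* stayed past the threshold.

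The mean of 5 hepatocyte markers in kidney 1 mg/kg replicate 1 was 8.06, against 3.92 to 4.55 in the other 16 kidney arrays. *Alb* and *Ttr*, encoding plasma proteins made in liver, read 11.06 and 9.32 there. These genes belong to no comparison of the members. Results that use the array are given without it where that changes a call, and its part in the kidney values was otherwise not tested.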

How the results depend on the processing

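For the 60 member results reported, 1131 of 1161 alternative values kept their direction and their side of the threshold, 8 lost a call, 15 gained one and 7 changed sign. Most of these results were not called in the main fit, so keeping their side mostly meant staying uncalled. The 8 lost calls all concerned *Gsta3* or *Gstt1* between the vehicle organs. The number of members called in liver between high and low doses was 1, and 2 with an intensity trend and robust spread (adding *Mgst1*) or with only the groups compared (adding *Gstm2*, adjusted p = 0.0403). In the liver trend 0 became 1 with probe sets above the median level and with array weights (*Gsta3*, adjusted p = 0.0294 and 0.0433), and ranged from 0 to 1 when single arrays were left out. At 500 mg/kg in kidney 0 became 1 in 1 fit of all arrays, in which 425 probe sets passed. For the difference between organs at 500 mg/kg 0 became 1 with the median filter, with array weights and without the kidney array with hepatocyte markers, and ranged from 0 to 1 over left-out arrays, as did the counts at 500 mg/kg in liver and between high and low doses in kidney. Leaving out single arrays turned the sign of uncalled values, which ran from -0.079 to 0.19 for *Gstm2* at 300 mg/kg in liver, from -0.091 to 0.0033 for *Gsta4* and from -0.29 to 0.11 for *Gstp1* at 500 mg/kg in kidney, and from -0.25 to 0.15 for *Gstp1* between organs at 500 mg/kg, which was 0.12 without both vehicle arrays with *Xist*. The cause of these changes was not tested.

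Over all probe sets, counts of calls moved with the setting. In liver they went from 38 to between 0 and 139 at 300 mg/kg and from 55 to between 1 and 136 at 500 mg/kg. They went from 172 to between 66 and 456 between high and low doses and from 76 to between 12 and 211 in the trend. For 500 minus 300 mg/kg the count went from 2 to between 0 and 16. Between organs it went from 9 to between 0 and 951 at 500 mg/kg and from 0 to 200 at 300 mg/kg. Between vehicle organs the count of 19047 went to between 11785 and 19652. The 11785 came with only probe sets above the median level, a setting that tests fewer probe sets, so it is no weaker organ difference by itself. The count of 0 in liver at 300 mg/kg was reached without vehicle replicate 2, which read high for *Xist*. Between organs at 500 mg/kg it was 0 without both vehicle arrays with *Xist*. In kidney 0 became 319, 201, 138, 23, 103 and 616 at the doses from 0.1 to 500 mg/kg without vehicle replicate 1, and 32 between high and low doses without 1 mg/kg replicate 2.

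Within an organ, replicate numbers showed no sign of pairing arrays across dose groups. Same-numbered arrays deviated from their group means with a mean r of 0.022 in liver and 0.026 in kidney. Liver arrays were not compared with kidney arrays in this check, so whether those of the same number share a rat was not tested. The vehicle arrays that read high for *Xist*, at 11.00 in liver and 9.33 in kidney, carry the same replicate number. With the replicate block the liver high minus low difference of *Gsta3* was 1.26 (adjusted p = 0.00788), and the number of members called changed in none of the 21 comparisons.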
